A study of Rattus norvegicus with 6 samples.

Results

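Predicted miRNAs made up 166 of the 842 rows of a small RNA table from rat orbitofrontal cortex, a frontal region that takes part in decision making. They were chosen by name alone, as all rows whose name starts with novel_, which are the rows without a miRBase name. The other 676 rows carried miRBase names. The injured group held 3 adult male Sprague Dawley rats, an outbred stock, given repeated mild controlled cortical impact, in which a driven tip strikes the brain. The sham group held 3 adult male Sprague Dawley rats operated on without an impact. All 6 animals had 3 surgeries, on days 1, 4 and 7, and their tissue was taken on day 42. In injured rats the impact had a velocity of 5 m/s and a depth of 2 mm. The comparison asked which small RNAs differed in this region weeks after the injuries.

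A miRNA is cut out of a hairpin-shaped transcript by the enzymes Drosha and Dicer and is loaded into an Argonaute protein, where its seed pairs with target mRNAs. Prediction programs propose further miRNAs where sequenced small RNAs pile up on a stretch of genome that could fold into such a hairpin. Fragments of other RNAs can pile up in the same way, so a predicted row is a candidate and not an established gene. The sources used here give neither the program nor the criteria behind these rows. RefSeq was searched by these names only, with 0 of 166 found, which cannot show whether it lists the same miRNAs under other names. The sequences and positions of the predicted miRNAs were not analysed here.

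For scale, the 3 rows with miRBase names closest in mean level to novel_1, the predicted miRNA with the highest mean level, were miR-3557-3p, miR-376b-3p and miR-138-1-3p. Their mature sequences are printed as RefSeq gives them for the assembly GRCr8, 5′ to 3′, with the seed (bases 2 to 8) in capitals. miR-3557-3p lies at chr18:57128962-57128983, miR-376b-3p at chr6:134558913-134558933 and miR-138-1-3p at chr8:131178494-131178515, all on the plus strand.
miR-3557-3p: aCACAGGAccuggagucaggag
miR-376b-3p: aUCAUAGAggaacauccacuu
miR-138-1-3p: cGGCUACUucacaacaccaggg
miR-376b-3p comes from the imprinted Dlk1-Dio3 cluster, and miR-138-1-3p is the minor strand of miR-138, a miRNA enriched in neurons. The reads of miR-3557-3p lay within 5% of those of miR-378a-5p in every library, so these names are not separate measurements. Which of these names the reads belong to was not tested. The sequence and seed printed for miR-3557-3p may therefore not be those of the RNA read. The most read row of the table, miR-9a-5p, had 9047 times the mean count of novel_3, the predicted miRNA with the most reads.

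Libraries held 17244114 to 22311086 counted reads in injured and 12538288 to 23680840 in sham rats, the lowest being sham replicate 1. These totals sum all rows. They include both rows of 32 pairs of miRBase names with counts within 5% of each other in every library. Levels are given in CPM, reads per 1000000 after TMM scaling, with no length term. A count of 0 allows up to 3 reads, or 0.111 to 0.235 CPM, and such limits cover counting error only. The 6 neuronal markers (miR-124-3p, miR-128-3p, miR-9a-5p, miR-138-5p, miR-137-3p and miR-218a-5p) were read in all 6 libraries, with a summed level of 293665 to 341782 CPM in injured and 256405 to 356327 CPM in sham rats. That sum includes miR-9a-5p, the most read row of the table. The 5 epithelial markers of the miR-200 family were also read in all 6 libraries, but set sham replicate 1 and injured replicate 2 apart. Their summed level was 7.69, 1719 and 124.4 CPM in injured replicates 1, 2 and 3, against 3528, 48.0 and 196.5 CPM in sham replicates 1, 2 and 3. The 3 sensory cell markers were highest in the same libraries, at 951.9 CPM in sham replicate 1 and 485.0 CPM in injured replicate 2. They summed to 34.0 to 175.6 CPM elsewhere. Of 10 pluripotent cell markers, 7 had a row and only 1 was read in all 6 libraries. Their summed level was instead highest in injured replicate 1, at 33.8 CPM, against 0.111 to 6.15 CPM elsewhere. The 3 red cell markers summed to 23.5 to 43.2 CPM in injured and 51.8 to 92.8 CPM in sham rats, without overlap, and their part in the results was not tested. In bulk tissue, fewer cells of a type and less RNA per cell cannot be told apart.

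Predicted miRNAs were 19.7% of the rows but took a very small share of the reads. They held 16319 reads over all libraries. Their share was 0.0109%, 0.0153% and 0.0129% in injured replicates 1, 2 and 3, against 0.0217%, 0.0130% and 0.0134% in sham replicates 1, 2 and 3. Sham replicate 1 had the highest share, and the groups overlapped. The mean was 0.0130% ± 0.00218 in injured and 0.0160% ± 0.00491 in sham rats (SD, n = 3 each), and the sham mean was 0.0132% without sham replicate 1. The median predicted miRNA had a mean count of 2.08 reads per library, against 229 reads for the median row with a miRBase name. By mean count, novel_3 was the highest predicted miRNA, with 290 miRBase-named rows above it and 386 below.

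**Figure D1:**
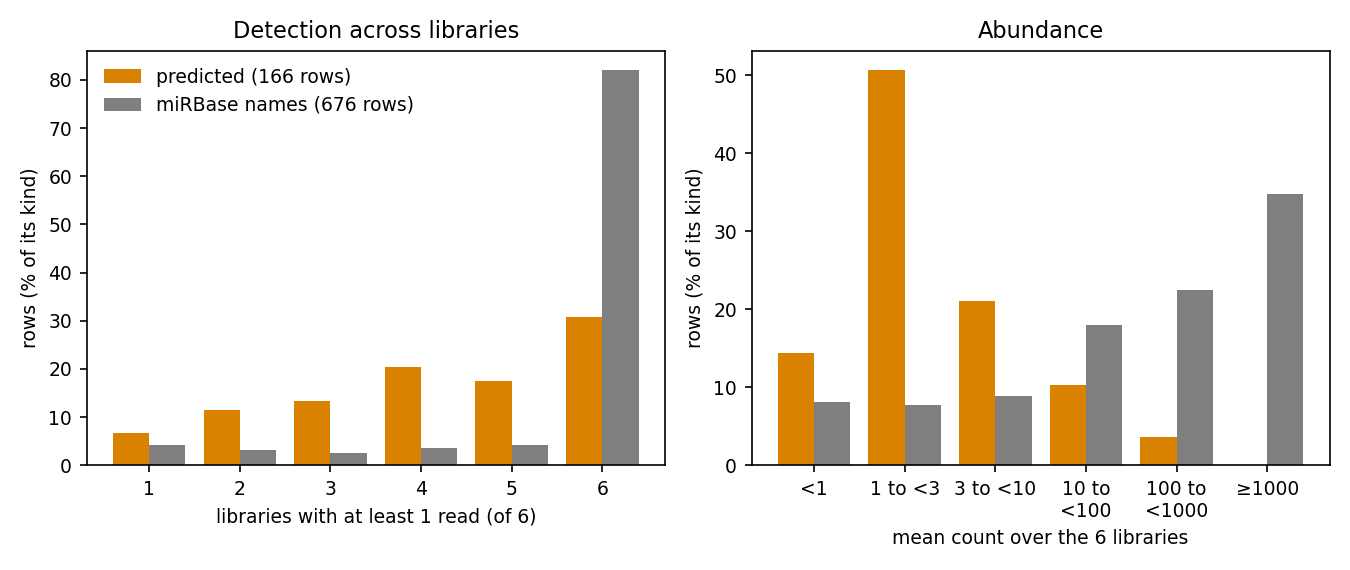
Detection and abundance of predicted miRNAs (orange) and rows with miRBase names (grey). The left panel gives the percentage of rows of each kind by the number of libraries with at least 1 read, and the right panel the percentage by mean count over the 6 libraries. Of predicted miRNAs, 30.7% were read in all 6 libraries and none had a mean count of 1000 or more.

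Detection in every library was the exception among predicted miRNAs. Of the 166, 51 (30.7%) had at least 1 read in all 6 libraries, 29 in 5, 34 in 4, 22 in 3, 19 in 2 and 11 in a single library. Of the 676 rows with miRBase names, 554 (82.0%) were read in all 6. At like abundance these shares lay closer together, though the difference was not tested. Between mean counts of 3 and 10, 24 of 35 predicted miRNAs (68.6%) and 43 of 60 miRBase-named rows (71.7%) were read in all 6 libraries. Between 1 and 3, these counts were 5 of 84 (5.95%) and 5 of 52 (9.62%). The predicted miRNAs were concentrated in that last range, which held 50.6% of them and 7.69% of the miRBase-named rows.

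The number of predicted miRNAs read was lowest in the shallowest library and highest in the deepest. It was 117, 117 and 125 in injured replicates 1, 2 and 3, against 95, 121 and 127 in sham replicates 1, 2 and 3. Thinned to the total of the shallowest library, the expected numbers were 101.2, 109 and 111.4 in injured and 95, 110.6 and 109.3 in sham rats. Sham replicate 1 remained the lowest, and the groups overlapped.

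Most of the reads of this class came from few members. The 23 predicted miRNAs averaging at least 10 reads per library held 87.3% of its reads, and the 6 most abundant of them (novel_3, novel_1, novel_59, novel_95, novel_84 and novel_157) held 67.4%. A mean count of at least 10 was reached by 13.9% of predicted miRNAs and by 75.3% of miRBase-named rows. Just inside this limit lay novel_161, novel_53 and novel_10, with mean counts of 15, 13 and 11.5. Just outside lay novel_96, novel_127 and novel_86, with 9.5, 9.17 and 8.67.

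The other 143 members had a mean count under 10 and a median of 10 reads in all, summed over the 6 libraries. Together they had 369, 347 and 386 reads in injured replicates 1, 2 and 3, against 203, 393 and 371 reads in sham replicates 1, 2 and 3. As a share of all reads this was 0.00181% ± 0.000184 in injured and 0.00174% ± 0.000249 in sham rats (SD, n = 3 each), a difference smaller than the spread within either group. Of the 143, 29 were read in all 6 libraries. The 11 read in a single library had 2 to 7 reads each, and 6 of them were in injured and 5 in sham libraries. Reads in injured rats only were seen for 11 members, with 2 to 14 reads, and in sham rats only for 11 others, with 3 to 9 reads.

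The names carried some order. Numbers ran to 181, and 15 numbers in that run had no row in the table used here. All 9 rows numbered up to 10 had a mean count of at least 10. From novel_1 to novel_47 higher numbers had fewer reads, with a Spearman correlation of -0.85 over 43 rows, and from novel_48 to novel_181 the correlation was -0.52 over 123 rows. The boundary between these ranges was chosen after the values were seen. The later range held 14 of the 23 members with a mean count of at least 10, among them novel_59, novel_95, novel_84 and novel_157.

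**Figure D2:**
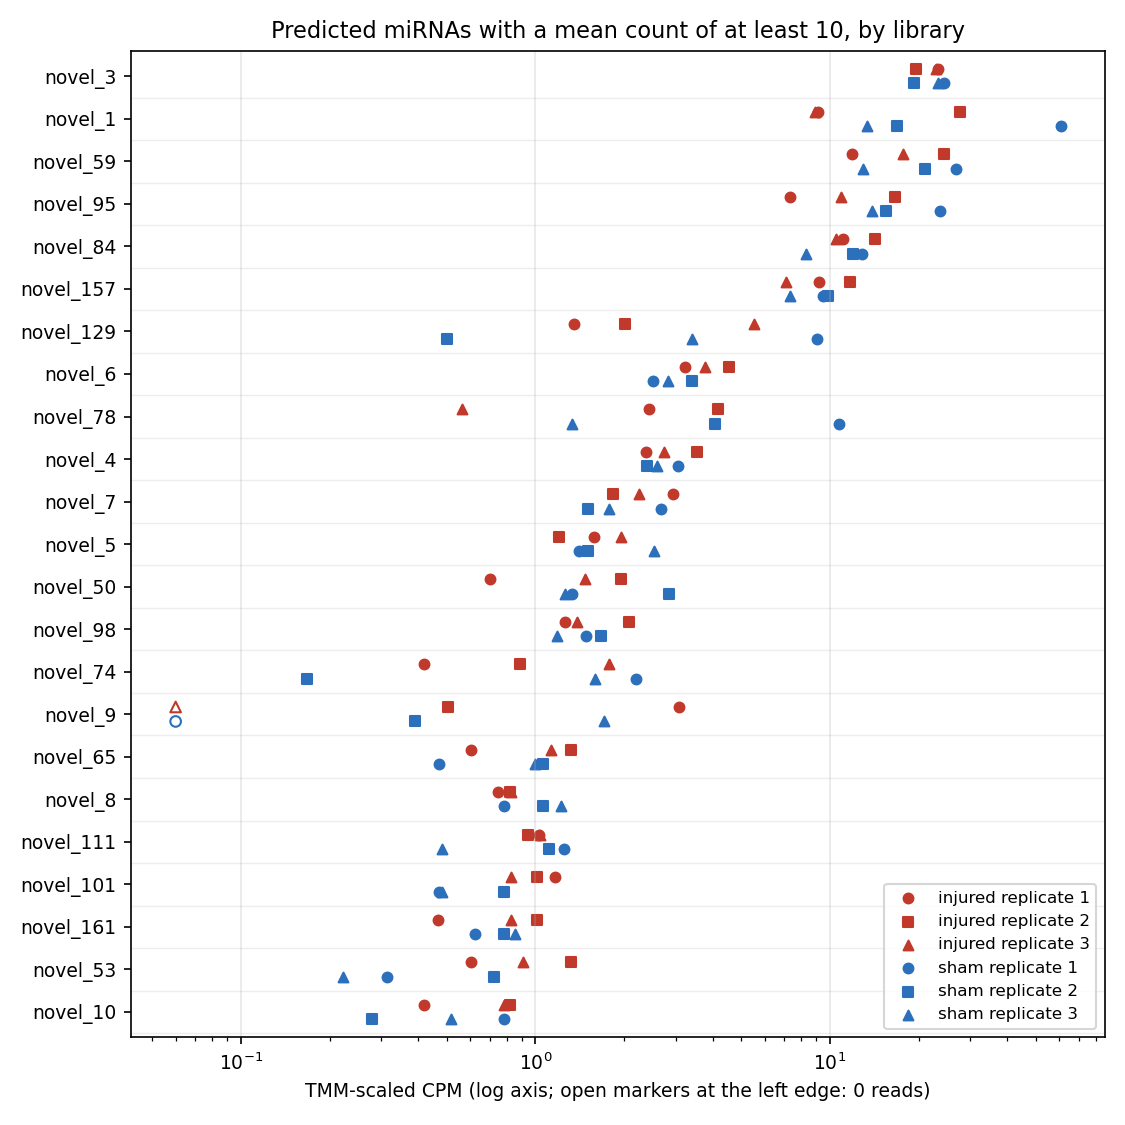
Level of the 23 predicted miRNAs that averaged at least 10 reads, in TMM-scaled CPM on a log axis. Red markers are the 3 injured and blue markers the 3 sham libraries, with 1 shape per replicate number, which pairs nothing. Open markers at the left edge stand for 0 reads, as in injured replicate 3 and sham replicate 1 for novel_9.

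novel_3 was both the most read predicted miRNA and the steadiest. It had 23.3, 19.6 and 22.9 CPM in injured replicates 1, 2 and 3, against 24.4, 19.3 and 23.3 CPM in sham replicates 1, 2 and 3. The groups overlapped and no library stood apart. Its coefficient of variation (CV, the SD over the 6 libraries as a percentage of the mean) was 9.57%, the lowest of the 23, beside 9.58%, 14.6% and 15.1% for miR-3557-3p, miR-376b-3p and miR-138-1-3p. With edgeR's quasi-likelihood test its log2 fold change, injured over sham, was -0.03, with a 95% interval from -0.44 to 0.39.

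novel_1 was as abundant on average but varied far more. It had 9.08, 27.6 and 8.88 CPM in injured replicates 1, 2 and 3, against 60.7, 16.8 and 13.4 CPM in sham replicates 1, 2 and 3. Sham replicate 1 was far above the other 5 libraries, injured replicate 2 came next, and the groups overlapped. Its CV was 87.2%. The mean was 15.2 ± 10.7 CPM in injured and 30.3 ± 26.4 CPM in sham rats (SD, n = 3 each). By edgeR its log2 fold change came to -0.996 ± 0.70 (SE), and the adjusted p was 0.885. It was 0.0022 without sham replicate 1 and -1.74 without injured replicate 2.

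novel_59 and novel_95 followed in level. novel_59 had 11.9, 24.4 and 17.7 CPM in injured replicates 1, 2 and 3, against 26.8, 21.0 and 12.9 CPM in sham replicates 1, 2 and 3. novel_95 had 7.31, 16.7 and 10.9 CPM in injured replicates 1, 2 and 3, against 23.6, 15.6 and 13.9 CPM in sham replicates 1, 2 and 3. For both, sham replicate 1 was highest, injured replicate 1 was lowest and the groups overlapped. Their CVs were 31.7% and 37.8%.

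novel_84 and novel_157 were evenly spread. novel_84 had 11.1, 14.2 and 10.5 CPM in injured replicates 1, 2 and 3, against 12.8, 12.0 and 8.30 CPM in sham replicates 1, 2 and 3. novel_157 had 9.18, 11.7 and 7.10 CPM in injured replicates 1, 2 and 3, against 9.46, 9.87 and 7.33 CPM in sham replicates 1, 2 and 3. Injured replicate 2 was highest for both and the groups overlapped. Their CVs were 17.7% and 18.7%, and their log2 fold changes were 0.11 ± 0.24 and 0.07 ± 0.25 (SE).

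Below these 6 the level dropped to under 4 CPM on average. novel_78 had 2.42, 4.17 and 0.563 CPM in injured replicates 1, 2 and 3, against 10.7, 4.07 and 1.33 CPM in sham replicates 1, 2 and 3, a 19.0-fold range between its highest and lowest library. novel_129 had 1.35, 2.02 and 5.54 CPM in injured replicates 1, 2 and 3, against 9.07, 0.502 and 3.41 CPM in sham replicates 1, 2 and 3, an 18.1-fold range. Sham replicate 1 was highest for both, but their lowest libraries differed. Both had overlapping groups.

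novel_6 and novel_4 varied little at a like level. novel_6 had 3.21, 4.54 and 3.77 CPM in injured replicates 1, 2 and 3, against 2.50, 3.40 and 2.81 CPM in sham replicates 1, 2 and 3. novel_4 had 2.38, 3.53 and 2.73 CPM in injured replicates 1, 2 and 3, against 3.05, 2.40 and 2.59 CPM in sham replicates 1, 2 and 3. For both the groups overlapped, with CVs of 21.5% and 16.0%.

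novel_9 was the only one of the 23 that was at 0 in some libraries. It had 66, 8 and 0 reads in injured replicates 1, 2 and 3, against 0, 7 and 46 reads in sham replicates 1, 2 and 3. In both groups 1 library was high, 1 was low and 1 had no read, which allows up to 0.130 CPM in injured replicate 3 and 0.235 CPM in sham replicate 1. Injured replicate 1 held 54.2% of its summed level, and the CV of 128.6% was the highest of the 23. It alone passed 50% in a single library, 1 of 23 (4.35%), beside 7 of the 219 miRBase-named rows in the same range of mean count (3.20%). Of those 7, 5 peaked in sham replicate 1, and 4 of these were strands of miR-141 and the miR-200 family.

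novel_74, singled out once its values had been seen, had the same order of libraries by CPM as novel_129. It had 9, 14 and 41 reads in injured replicates 1, 2 and 3, against 28, 3 and 43 reads in sham replicates 1, 2 and 3. novel_129 had 29, 32 and 128 reads in injured replicates 1, 2 and 3, against 116, 9 and 92 reads in sham replicates 1, 2 and 3. In each library novel_129 had 2.14 to 4.14 times the reads of novel_74. By contrast, the ratio of novel_1 to novel_78 ranged from 3.75 to 15.8. Pairs with counts within 5% of each other in every library were sought only among rows with a mean count of at least 10. These were 23 predicted and 509 miRBase-named rows. No such pair held a predicted miRNA, whereas 32 existed among miRBase names. Rows below that limit were not searched, and novel_31 and novel_155, for example, had equal counts in every library.

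**Figure D3:**
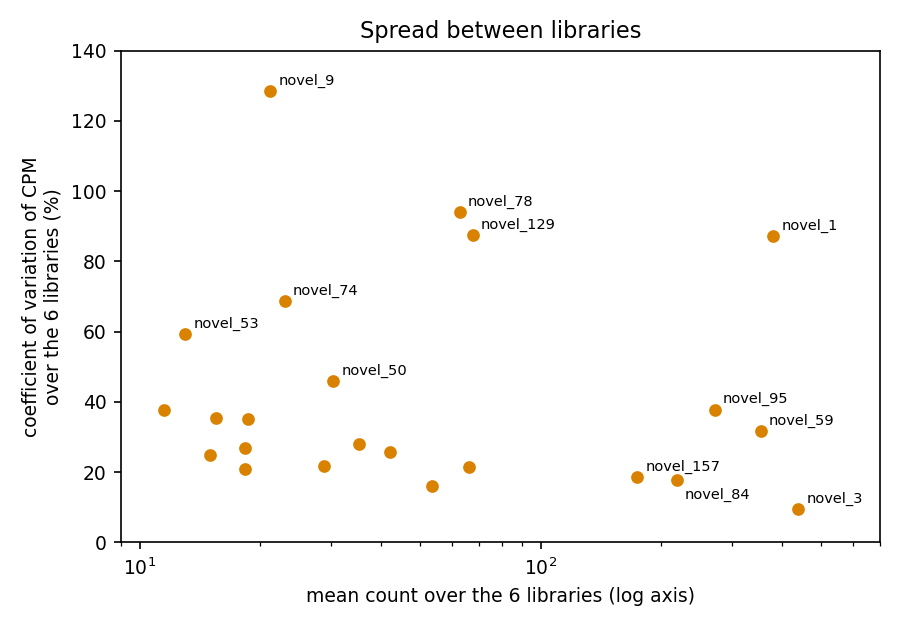
Coefficient of variation of CPM over the 6 libraries (%) against mean count (log axis) for the 23 predicted miRNAs with a mean count of at least 10. novel_9, novel_78, novel_129, novel_1, novel_74 and novel_53 lie above 50%, and novel_3 is lowest at 9.57%.

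Over the 23, the CV had a median of 31.7%. It was under 20% for 4, from 20% to 50% for 13 and above 50% for 6. The 219 miRBase-named rows in the same range had a median CV of 24.8%. The median of the mean counts was 35.2 reads for the predicted miRNAs and 77.5 for those named rows. Against counting error alone, the chi-square per degree of freedom over the 6 libraries had a median of 3.43 for predicted miRNAs and 4.64 for those named rows. It was 0.875 for novel_8 and 0.894 for novel_161, at the level of counting error, and 298.9 for novel_1.

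For some members the highest levels lay in the libraries with the fewest reads, a pattern looked for after the values were seen. For novel_1, novel_59, novel_78 and novel_95, the 3 highest libraries were sham replicate 1, injured replicate 2 and sham replicate 2, in that order, which is also the order of the 3 smallest totals (12538288, 17244114 and 19446526 reads). This held for 4 of the 23 (17.4%) and for 1 of the 219 miRBase-named rows in the same range (0.457%). With scaling to library totals in place of TMM it held for 3 of 23, all but novel_95, and for 0 of 219. Among the 3 largest libraries, the TMM-scaled level did not fall steadily with rising total for any of the 4. There novel_1 had 8.88, 9.08 and 13.4 CPM in injured replicate 3, injured replicate 1 and sham replicate 3, in order of rising total. Before scaling, reads ranged over the 6 libraries from 195 to 776 for novel_1, 13 to 137 for novel_78, 157 to 374 for novel_95 and 255 to 409 for novel_59. Sham replicate 1 had the most reads of novel_1 and novel_78, but not of novel_95 and novel_59. The miR-200 markers were also highest in sham replicate 1 and next in injured replicate 2, but sham replicate 2 was their second lowest library. The part of depth and of these markers in the levels was not tested.

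**Figure D4:**
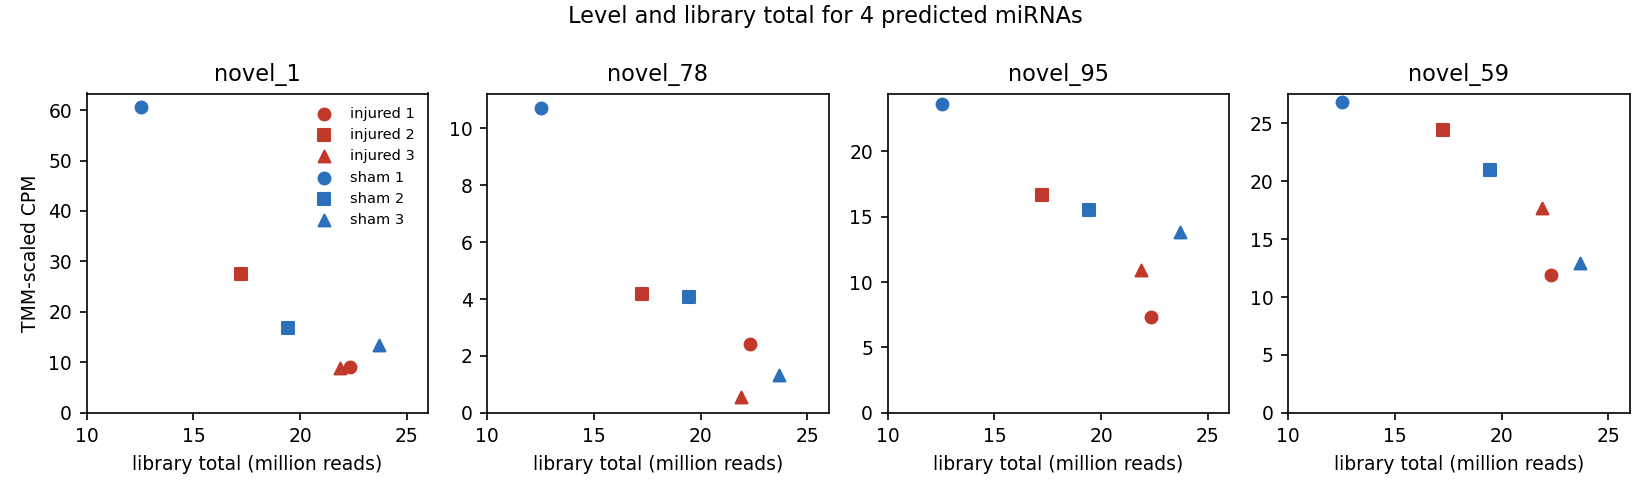
TMM-scaled CPM of novel_1, novel_78, novel_95 and novel_59 against the total of each library, in units of 1000000 reads. Red markers are injured and blue markers sham libraries, with 1 shape per replicate number. In each panel sham replicate 1, which has the smallest total, is the highest point.

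Among the 23, sham replicate 1 was the highest library for 8 (34.8%) and injured replicate 2 for 9 (39.1%). Each of these libraries was highest for 15.1% of the 219 miRBase-named rows. Injured replicates 1 and 3 were highest for 3 and 0, and sham replicates 2 and 3 for 1 and 2. Of the miRBase-named rows, injured replicates 1 and 3 were highest for 8.22% and 13.2%, and sham replicates 2 and 3 for 15.5% and 32.9%.

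No predicted miRNA differed between injured and sham rats by the test. All rows with a mean count of at least 10 entered it, 532 in all, 23 of them predicted. With edgeR's quasi-likelihood test and Benjamini-Hochberg adjustment over the 532 rows, 0 of the 23 and 0 of the 532 (0%) passed an adjusted p of 0.05. The smallest adjusted p among predicted miRNAs was 0.885. An unadjusted p under 0.05 was reached by 0 of the 23, beside 12 of the 532 (2.26%). Of the 23, 0 were called by DESeq2, by limma-voom or by limma run on log2(TPM + 1), and 0, 1 and 0 reached an unadjusted p under 0.05 with these tools. Over all rows tested, 19, 15 and 11 reached it with the same tools. With edgeR and 1 library left out, 0 to 2 of the 23 reached it, beside 5 to 28 of all rows tested. The groups did not overlap for 1 of the 23, beside 43 of the 532 (8.08%).

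**Figure D5:**
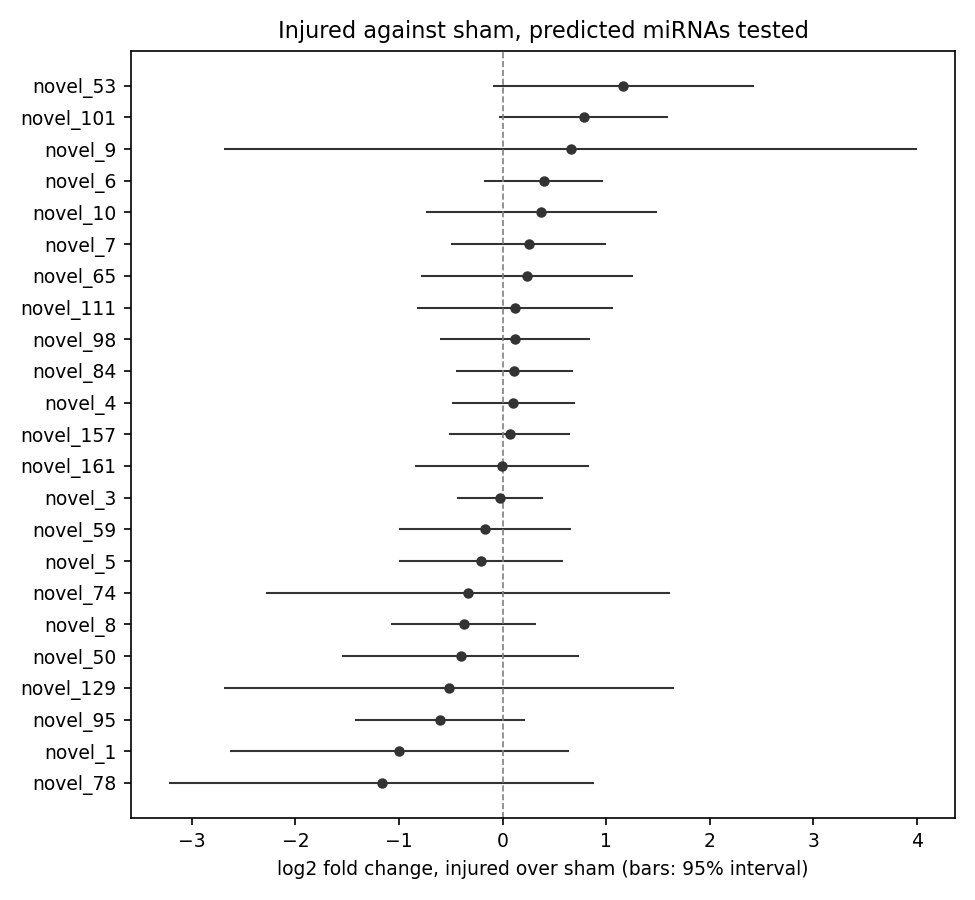
Log2 fold change, injured over sham, of the 23 predicted miRNAs tested, from edgeR, with 95% intervals as bars and a dashed line at 0. Every interval includes 0, and that of novel_9, from -2.69 to 4.01, is the widest.

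The members with the smallest p were novel_101, novel_53, novel_95, novel_6 and novel_1. novel_101 had 25, 16 and 19 reads in injured replicates 1, 2 and 3, against 6, 14 and 13 reads in sham replicates 1, 2 and 3. It was the 1 member whose groups did not overlap, at 0.999 ± 0.171 CPM in injured and 0.577 ± 0.176 CPM in sham rats (SD, n = 3 each). By edgeR it had a log2 fold change of 0.78 ± 0.35 (SE), with an interval from -0.03 to 1.60 and an adjusted p of 0.885. Groups not overlapping with injured rats higher were found for 17 of the 532 rows (3.2%).

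novel_53 had 13, 21 and 21 reads in injured replicates 1, 2 and 3, against 4, 13 and 6 reads in sham replicates 1, 2 and 3. Scaled to CPM the groups overlapped, since injured replicate 1 was below sham replicate 2. Its mean was 0.947 ± 0.361 CPM in injured and 0.420 ± 0.268 CPM in sham rats (SD, n = 3 each). The log2 fold change of 1.17 ± 0.54 (SE) had an interval from -0.10 to 2.43 and an adjusted p of 0.885 from edgeR. novel_95 and novel_6 had log2 fold changes of -0.60 ± 0.35 and 0.40 ± 0.24 (SE), both with an adjusted p of 0.885. That of novel_95 was -0.34 without sham replicate 1, -0.36 without injured replicate 1 and -0.94 without injured replicate 2. For novel_53 it was 1.87 without sham replicate 2.

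Over the 23, 12 log2 fold changes were positive and 11 negative, with a median of 0.07. Over all 532 rows, 242 were positive and 290 negative, with a median of -0.03. The lowest member was novel_78, at -1.17 ± 0.87 (SE), and the highest was novel_53. novel_78 was at -0.18 without sham replicate 1, -0.67 without injured replicate 3 and -1.83 without injured replicate 2. The 10 members outside the highest levels, the smallest p and the largest shares in 1 library ran from novel_50, at -0.41 ± 0.49 (SE), to novel_10, at 0.37 ± 0.47. Without sham replicate 2, novel_50 was at 0.12 and novel_10 at 0.11, and novel_50 was at -0.71 without injured replicate 2 and novel_10 at 0.70 without sham replicate 1.

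The precision was lower than for the miRBase-named rows. The median standard error on the log2 scale was 0.35 for the 23 predicted miRNAs, 0.30 for the 219 miRBase-named rows in the same range and 0.24 for all 532 rows. Mean counts were not matched within that range, with a median of 35.2 reads for the 23 and 77.5 for the 219. The 95% interval of the median predicted miRNA reached 0.83 log2 units to either side. For novel_3 it excluded changes beyond -0.44 and 0.39, while for novel_9, whose log2 fold change was 0.66 ± 1.42 (SE), it spanned -2.69 to 4.01. Without injured replicate 1, the log2 fold change of novel_9 was -1.74.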

How the data were processed

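Small RNA from the orbitofrontal cortex of 3 injured and 3 sham rats was sequenced. A ligation-based kit made the libraries from 2 μg of total RNA, per the labels' protocols, with gel products of 140 to 160 bp recovered. The submitters' processing notes name Bowtie and the rat build rn6. The sources used here give no read counter, miRNA release, prediction program or filter. Per the file headers, the authors' table held raw read counts and TPM values per library. The deposited TPM equalled the count over the column total, times 1000000, with no length term, to within 4.66e-10.

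From the counts, all rows with a mean of at least 10 over the 6 libraries were tested with edgeR 4.0.16 (glmQLFit and glmQLFTest, TMM scaling) in R 4.3.3, with Benjamini-Hochberg adjustment over 532 rows. The standard error was the absolute log2 fold change over the square root of F, and the 95% interval used a t distribution. The common biological CV was 36.9%. Alternatives were DESeq2 1.42.0, limma 3.58.1, other scalings and filters, and leaving out libraries. The edgeR procedure was tested on simulated counts. The p-values set the difference between groups against the spread between biological replicates, as the labels call them. Replicate numbers follow sample order and pair nothing.

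The members and lists were chosen with earlier results of these data known. Values per library are given for the 10 predicted miRNAs highest in mean CPM, any called, the 5 with the smallest p and the 5 with the largest share of their level in 1 library. No test was made of sums over the members. Reads carried no molecular identifiers that the sources mention.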

Additional observations from a re-analysis of the deposited data

How the results depend on the processing

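No predicted miRNA was called under any of the 17 alternatives, where the smallest adjusted p of a member was 0.67, and 0 to 2 had an unadjusted p under 0.05. The 2 were novel_101 and novel_53 with upper-quartile factors and without sham replicate 2, novel_1 and novel_95 without injured replicate 2, and novel_16 and novel_169 with no filter. filterByExpr (minimum count 10, minimum total 15) kept novel_96, novel_127 and novel_14 in place of novel_9. Over all rows, 1, miR-293-5p (named after its values were seen), was called without sham replicate 1 and injured replicate 2, a setting chosen after seeing the data, and 0 elsewhere. The count at an unadjusted p under 0.05 over all rows was 12, against 19 with DESeq2, 21 when injured replicate 1 was left out, and 21, 28 and 5 when sham replicate 1, 2 or 3 was left out. It was 9 with upper-quartile factors, 18 with no filter and 13 without injured replicate 2. Upper-quartile factors moved the median log2 fold change of all rows by 0.14.

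Of 390 log2 fold changes of the 23 members under alternatives, 347 kept their sign, and 8 members kept it throughout. For the others the cause of a change in sign was not tested. novel_3 had 0.0031 with RLE, 0.12 with upper-quartile factors and 0.0049 with DESeq2. novel_161 had 0.017 with no filter, 0.031 with RLE, 0.16 with upper-quartile factors, 0.032 with DESeq2 and 0.027 with 1 row per near-duplicate pair. novel_157 had -0.0032 with library totals and -0.014 with limma on log2(TPM + 1). With limma-voom, novel_129 had 0.069, novel_74 had 0.032 and novel_9 had -0.13. Without sham replicate 1 and injured replicate 2, novel_3 had 0.15, novel_157 -0.053, novel_129 0.85, novel_98 -0.076, novel_74 0.32 and novel_65 -0.21.

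With 1 library left out, ranges were -0.095 to 0.068 for novel_3, -1.74 to 0.0022 for novel_1, -0.43 to 0.086 for novel_59, -0.057 to 0.23 for novel_84, -0.11 to 0.26 for novel_157, -1.32 to 0.58 for novel_129, -0.046 to 0.23 for novel_4, -0.36 to 0.12 for novel_5, -0.71 to 0.12 for novel_50, -0.11 to 0.27 for novel_98, -0.98 to 0.17 for novel_74, -1.74 to 2.44 for novel_9, -0.025 to 0.50 for novel_65, -0.23 to 0.36 for novel_111 and -0.21 to 0.26 for novel_161. For the 8 that kept their sign they were -1.83 to -0.18 for novel_78, -0.94 to -0.34 for novel_95, -0.52 to -0.22 for novel_8, 0.061 to 0.51 for novel_7, 0.11 to 0.70 for novel_10, 0.28 to 0.55 for novel_6, 0.65 to 1.08 for novel_101 and 0.81 to 1.87 for novel_53.

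The share of reads in predicted miRNAs was 0.0170% in injured and 0.0213% in sham rats with 1 row per near-duplicate pair, since the totals were smaller. With 1 library left out it ranged from 0.0119% to 0.0141% in injured and from 0.0132% to 0.0176% in sham rats. With at least 10 reads as detection, the median number detected was 27 in injured and 25 in sham libraries, and with at least 3 reads, 32 were detected in all 6. At 75% in 1 library, 0 members passed. No paired analysis was possible because the labels give no replicate numbers.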

Other observations

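Among the predicted miRNAs with a mean count under 10, 3 were read in every library of 1 group and in none of the other. These 3 were named after their values were seen. The miRBase-named rows that did the same were not counted, so whether 3 is many for rows this low cannot be told. novel_16 had 5, 6 and 3 reads in injured replicates 1, 2 and 3 and 0 in every sham library, and novel_176 had 4, 1 and 1 reads in injured replicates 1, 2 and 3 and 0 in every sham library. novel_169 had 0 reads in every injured library, against 2, 2 and 3 reads in sham replicates 1, 2 and 3. In a fit of all 842 rows without a filter, edgeR gave novel_16 an unadjusted p of 0.00813 and novel_169 one of 0.0299, both with an adjusted p of 0.899. These members had 14 reads or fewer in all.

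novel_119, also named after its values were seen, had nearly all its reads in 1 library, with 0, 2 and 0 reads in injured replicates 1, 2 and 3, against 0, 31 and 0 reads in sham replicates 1, 2 and 3. Sham replicate 2 held 93.2% of its summed level.

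novel_127 had 15, 16 and 1 reads in injured replicates 1, 2 and 3, against 5, 14 and 4 reads in sham replicates 1, 2 and 3, so that injured libraries stood at both ends of its range.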
